A study of Mus musculus with 6 samples.

Results

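A set of genes that mark B cells and antibody-secreting plasma cells was measured in type 2 innate lymphoid cells (ILC2s) sorted from the colon of mice with and without chemically induced colitis. The 9 genes were Jchain, Mzb1, Derl3, Txndc5, Tnfrsf17, Pou2af1, Cd79a, Cd79b and Ms4a1. They were chosen by symbol, as markers of a lineage other than the sorted one, with earlier results of these data known. All 9 were among the 23268 genes of the deposited table. ILC2s are innate lymphocytes that carry no antigen receptor and respond to cytokines of the damaged epithelium. Dextran sulfate sodium (DSS) is a polymer that injures the colon epithelium when given in drinking water. The DSS mice were C57BL/6 animals aged 6 to 8 weeks given 3% DSS for 6 days, and the controls were C57BL/6 animals of the same age range given water for 6 days; no allele or transgene was named for either group. Each group had 3 libraries, made from total RNA as full-length cDNA without strand information. The labels do not say whether a library came from 1 mouse or from pooled mice, so the spread behind every p-value is that between libraries and could be technical.

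B cells recognise antigen through a membrane immunoglobulin that signals through the CD79A and CD79B chains. On activation some become plasma cells, which shut down the surface receptor programme and expand the endoplasmic reticulum (ER) to fold and secrete antibody. In the colon most plasma cells make IgA, which is joined by the J chain and carried across the epithelium into the lumen.

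The libraries held between 9999630 and 19009795 fragments in genes in DSS and between 12719280 and 23197088 in controls, recovered from the steps of the deposited FPKM values (fragment counts divided by the length of the gene and the depth of the library). DSS library 3 and control library 3 were the shallowest of their groups. They also stood apart in genes foreign to lymphocytes: the 1103 olfactory receptor genes averaged 0.182, 0.135 and 0.962 FPKM in DSS libraries 1, 2 and 3, against 0.0342, 0.0833 and 0.583 FPKM in control libraries 1, 2 and 3. Throughout, values for libraries 1, 2 and 3 are given in that order. All 12 listed ILC2 genes were above 0 in every library. Their summed level was 6478, 4637 and 4143 FPKM in DSS libraries, against 6222, 6004 and 5467 FPKM in controls, and most of it was Id2, with 4960.1, 2819 and 2296 FPKM in DSS libraries, against 3835, 3679 and 3187 FPKM in controls. Of the 12, 10 were lower in value in DSS, and in 5 (Gata3, Rora, Icos, Il2ra and Nmur1) all DSS libraries lay below all controls, where 9.6% of all tested genes did. In the adjusted tests 0 passed limma, where 0.222% of all tested genes did, and 0 passed voom. At an unadjusted limma p under 0.05 there were 5, a count whose share over all tested genes was not taken. Gata3, the factor that defines ILC2s, had 287, 652 and 674 FPKM in DSS libraries, against 885, 841 and 852 FPKM in controls, with the lowest value in DSS library 1. The part of this in the members' values was not tested. None of the 12 listed immunoglobulin constant region genes was among the table's symbols, and those transcripts are not analysed here. The test was limma on log2(FPKM + 1) over the 12187 genes with a mean of at least 1 FPKM, with Benjamini-Hochberg adjustment over all of them and a threshold of 0.05.

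Jchain, Mzb1 and Derl3, which serve antibody assembly and ER degradation, the coactivator gene Pou2af1 and the receptor chain gene Cd79a were higher in value in each DSS library than in any control library, with a wide spread among DSS libraries. In Txndc5, Tnfrsf17, Cd79b and Ms4a1 the groups overlapped. Summed over the 9 genes, the level was 314, 254 and 71.1 FPKM in DSS libraries, against 37.4, 38.5 and 55.5 FPKM in controls. DSS libraries 1 and 2 lay far above the controls and DSS library 3 lay nearer to the highest of them. As a share of all fragments in genes, the 9 genes took 0.0593, 0.0515 and 0.0145% in DSS libraries and 0.00772, 0.00803 and 0.0114% in controls. In these bulk samples a difference in the number of cells of a type and a difference in RNA per cell cannot be told apart.

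No member passed the adjusted test. Of the 8 members tested, 0 were called higher and 0 lower by limma, against a background of 9 of 12187 genes called higher (0.0738%), 18 called lower (0.148%) and 27 called in either direction (0.222%). At an unadjusted p under 0.05, 4 of the 8 were higher in DSS (Jchain, Mzb1, Derl3 and Pou2af1), where 3.57% of all tested genes were. The voom test on recovered fragments also called 0 of the 8, against 19 of 12187 genes called (3 higher, 16 lower). At an unadjusted voom p under 0.05 there were 4 of the 8, a count whose share over all tested genes was not taken. In 5 of the 8 (those 4 and Cd79a) all DSS libraries lay above all control libraries, where 6.35% of all tested genes had groups separated that way. The median log2 change of the 8 was 1.20, against 0.03 over all tested genes. Derl3, Pou2af1 and Cd79a averaged under 1 FPKM in controls and passed the expression filter through their DSS values, so these counts were partly set by that filter. The members were also chosen with earlier results of these data known, so these shares and medians describe them and carry no test. Ms4a1 averaged under 1 FPKM over the 6 libraries and was not tested.

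**Figure D1:**
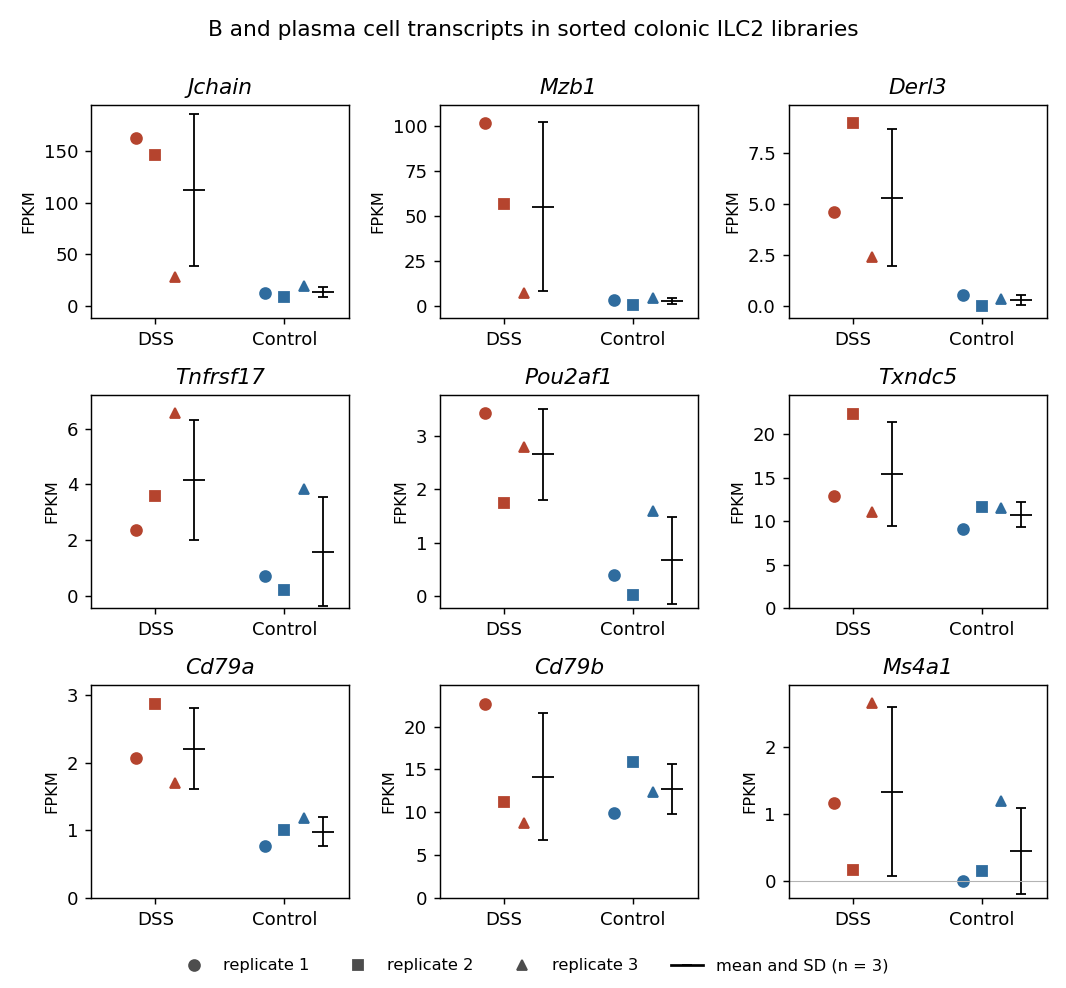
Level of each of the 9 genes (FPKM, linear axes that differ between panels) in the DSS and control libraries. Each symbol is 1 library, shaped by replicate number, and the bar is the mean and SD of 3 libraries; DSS library 3 (triangle) sits near the controls for Jchain and Mzb1, and replicate 3 is the highest of its group for Tnfrsf17 and Ms4a1.

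Jchain, which encodes the chain that links IgA and IgM monomers into the secreted polymers, had the highest level of the 9 in DSS libraries. It lies on chr5:88519809-88527891 (GRCm38, minus strand, GENCODE annotation). Its level was 164, 146 and 27.7 FPKM in DSS libraries, against 12.5, 8.98 and 19.2 FPKM in controls. DSS libraries 1 and 2 were several times above every control library, while DSS library 3 was 1.45 times control library 3, and the groups did not overlap. The mean was 112.6 ± 74.0 FPKM in DSS and 13.6 ± 5.18 FPKM in controls (SD, n = 3 each), a ratio of 8.30. The log2 change was 2.67 ± 0.59 (SE), with a limma adjusted p of 0.136. Between same-numbered libraries the ratio was 13.1, 16.3 and 1.45. Without DSS replicate 3, the DSS library nearest the controls, the log2 change was 3.48 with a limma adjusted p of 0.00198. Leaving out any other single library gave a limma adjusted p between 0.0526 (DSS library 1) and 0.626 (control library 1). The call thus depends on which library is left out. In rank, Jchain stood at percentiles 98.1, 98.2 and 91.7 of the table's genes in DSS libraries, against 83.3, 79.3 and 87.8 in controls.

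Mzb1, an ER cochaperone of marginal zone and B-1 cells that aids IgM assembly and secretion, followed the same order of libraries. It lies on chr18:35647267-35649367 (minus strand). Its level was 102, 56.7 and 7.37 FPKM in DSS libraries, against 3.34, 0.708 and 4.27 FPKM in controls. All DSS libraries exceeded all control libraries, DSS library 3 by less than the others. The means were 55.3 ± 47.2 FPKM in DSS and 2.77 ± 1.85 FPKM in controls (SD, n = 3 each), and the log2 change was 3.44 ± 0.80 (SE; limma adjusted p = 0.156). Control library 2 rested on 14 fragments. Without DSS replicate 3, the DSS library nearest the controls, the log2 change was 4.51 and the limma adjusted p 0.00615. Leaving out any other single library gave a limma adjusted p between 0.0644 (DSS library 1) and 0.684 (control library 2). Relative to Jchain, Mzb1 FPKM was 0.622, 0.387 and 0.266 in DSS libraries, against 0.267, 0.0788 and 0.222 in controls, so that the ratio varied within each group and the groups overlapped. Mzb1 shares 695 exonic bases with its same-strand neighbour Spata24, so reads there could be split between them; Spata24 had 1.40, 2.85 and 4.30 FPKM in DSS libraries and 4.56, 3.56 and 3.72 FPKM in controls, the opposite order to Mzb1 within DSS.

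Derl3 encodes a derlin of ER-associated degradation, which returns misfolded proteins to the cytosol. It lies on chr10:75893413-75895941 (plus strand). Its level was 4.59, 8.99 and 2.40 FPKM in DSS libraries, against 0.518, 0 and 0.354 FPKM in controls. Here DSS library 2 was the highest, and DSS library 3 still lay above all controls. Control library 2 had 0 fragments, where a count of 3 would have been 0.128 FPKM. The means were 5.33 ± 3.36 FPKM in DSS and 0.291 ± 0.265 FPKM in controls (SD, n = 3 each). DSS was 8.87 and 6.77 times the control in replicates 1 and 3 and at least 70.2 times in replicate 2, against the floor of 3 fragments in that library. The log2 change of 2.18 ± 0.46 (SE; limma adjusted p = 0.132) depends on the pseudocount, since 1 library was at 0, and ran between 0.92 and 5.03 over the settings tried. The gene rested on 91, 228 and 32 fragments in DSS libraries and on 16, 0 and 6 in controls.

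Txndc5, a protein disulfide isomerase of the ER expressed in many secretory cells, differed less. It lies on chr13:38500079-38528824 (minus strand). Its level was 12.9, 22.3 and 11.1 FPKM in DSS libraries, against 9.13, 11.6 and 11.5 FPKM in controls. DSS library 2 stood above the others and DSS library 3 lay within the control range. The means were 15.5 ± 6.02 FPKM in DSS and 10.8 ± 1.41 FPKM in controls (SD, n = 3 each), with a log2 change of 0.43 ± 0.27 (SE; limma adjusted p = 0.728). Exons of Txndc5 share 224 bases with Bmp6 and 311 with Gm31834 on the opposite strand, which the libraries cannot separate; Bmp6 was at 0.223, 0.188 and 1.76 FPKM in DSS libraries and 0.0952, 0.487 and 1.17 FPKM in controls.

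Sequences before the start of 4 of these genes are shown because Jchain and Derl3 had the largest log2 changes among members with a RefSeq window to print, and because 2 others held a motif of the unfolded protein response, the programme by which secretory cells enlarge their ER. Of the 9 members, 6 were searched in RefSeq promoter windows (GRCm38.p6), with 8 windows of 250 bases before to 50 after a start. Mzb1 was left out of the search with its chromosome, which the count over all windows kept. Cd79b and Ms4a1 had no window. The 3 motifs were searched on both strands, after the sequences had been seen. They were the ER stress element (CCAAT, any 9 bases, then CCACG), the core of the unfolded protein response element (TGACGTGG) and the octamer ATGCAAAT, read by the octamer factors that POU2AF1 joins. Capitals mark a motif, and each run is the 250 bases before the start, 5′ to 3′.
Jchain, chr5:88527898-88528147, minus strand, none of the 3 motifs: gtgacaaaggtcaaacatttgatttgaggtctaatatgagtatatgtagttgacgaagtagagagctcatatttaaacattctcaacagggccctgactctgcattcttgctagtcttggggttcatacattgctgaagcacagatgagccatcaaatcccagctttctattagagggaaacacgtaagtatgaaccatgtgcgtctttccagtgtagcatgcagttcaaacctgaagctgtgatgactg
Derl3, chr10:75893148-75893397, plus strand, ER stress element on the opposite strand: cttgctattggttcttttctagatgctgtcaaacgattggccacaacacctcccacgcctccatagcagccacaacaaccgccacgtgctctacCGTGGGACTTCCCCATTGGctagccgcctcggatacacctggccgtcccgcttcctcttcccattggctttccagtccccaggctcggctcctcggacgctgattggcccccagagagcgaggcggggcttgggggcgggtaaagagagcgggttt
Pou2af1, chr9:51213440-51213689, plus strand, TGACGTGG: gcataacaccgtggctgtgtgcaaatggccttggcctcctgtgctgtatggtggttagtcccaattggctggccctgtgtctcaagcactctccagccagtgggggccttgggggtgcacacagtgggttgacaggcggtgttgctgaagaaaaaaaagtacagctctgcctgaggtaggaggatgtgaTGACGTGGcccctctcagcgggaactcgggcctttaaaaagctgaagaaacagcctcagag
Txndc5, chr13:38527915-38528164, minus strand, TGACGTGG: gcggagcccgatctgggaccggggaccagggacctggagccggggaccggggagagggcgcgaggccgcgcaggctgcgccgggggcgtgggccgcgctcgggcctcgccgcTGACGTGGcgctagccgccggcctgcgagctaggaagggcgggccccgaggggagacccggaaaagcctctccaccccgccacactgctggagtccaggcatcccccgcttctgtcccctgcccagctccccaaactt
In Derl3 the element's first base lay 156 bases before the start; in Pou2af1 and Txndc5 TGACGTGG began 61 and 138 bases before it. The other 2 Txndc5 windows, and the windows of Cd79a and Tnfrsf17, held none of the 3 motifs. Over all 32851 windows the ER stress element was in 0.119%, TGACGTGG in 0.676% and the octamer in 1.74%; among the members they were in 1, 2 and 0 of 8 windows. Of 24 windows of ER folding and degradation genes, 7 held the ER stress element, among them Hspa5 and Calr. A match describes letters and not a bound site, and the member with the highest level in DSS, Jchain, had none.

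Tnfrsf17 encodes BCMA, the receptor through which plasma cells receive survival signals from APRIL and BAFF. It lies on chr16:11313812-11320074 (plus strand). Its level was 2.37, 3.58 and 6.56 FPKM in DSS libraries, against 0.735, 0.208 and 3.83 FPKM in controls. Replicate 3 was the highest library of each group, control library 3 lay above DSS libraries 1 and 2, and the groups overlapped. The means were 4.17 ± 2.16 FPKM in DSS and 1.59 ± 1.96 FPKM in controls (SD, n = 3 each), with a log2 change of 1.18 ± 0.53 (SE; limma adjusted p = 0.565). In each numbered pair the DSS library was the higher, by 3.23 times in the first and 1.71 times in the third, while control library 2 held 3 fragments. Of the other 4 genes of this ligand and receptor system, none averaged 1 FPKM. Tnfrsf13b, the receptor TACI, had 0.0783, 0.387 and 1.36 FPKM in DSS libraries, against 0.385, 0.552 and 0.763 FPKM in controls. Tnfrsf13c, the BAFF receptor of mature B cells, had 0.168, 0.420 and 2.05 FPKM in DSS libraries, against 0.280, 0.227 and 0.629 FPKM in controls. Tnfsf13b, which encodes BAFF itself, had 0.0280, 0.0437 and 0.560 FPKM in DSS libraries, against 0, 0.284 and 0.147 FPKM in controls, and Tnfsf13, which encodes APRIL, had 1 fragment in DSS library 3 and 0 in the other 5 libraries.

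Pou2af1 encodes the B cell coactivator OCA-B, needed for germinal centres and for octamer-driven immunoglobulin transcription. It lies on chr9:51213708-51240080 (plus strand). Its level was 3.43, 1.74 and 2.80 FPKM in DSS libraries, against 0.386, 0.0221 and 1.59 FPKM in controls. The lowest DSS library lay just above control library 3, the highest control. The means were 2.65 ± 0.855 FPKM in DSS and 0.666 ± 0.821 FPKM in controls (SD, n = 3 each), with a log2 change of 1.22 ± 0.48 (SE; limma adjusted p = 0.467). Control library 2 held 1 fragment, so no ratio is given for that pair.

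The 3 surface genes of B cells differed in level and in how their libraries were ordered. Cd79a and Cd79b encode the signalling chains of the B cell receptor, Igα and Igβ, which work as a pair; Ms4a1 encodes CD20, which plasma cells lose. Cd79a (chr7:24897381-24902197, plus strand) had 2.06, 2.86 and 1.70 FPKM in DSS libraries, against 0.763, 1.01 and 1.18 FPKM in controls. Its groups did not overlap, although the lowest DSS and highest control libraries differed by less than 1 FPKM. The log2 change was 0.68 ± 0.39 (SE), with means of 2.21 ± 0.594 FPKM in DSS and 0.982 ± 0.208 FPKM in controls (SD, n = 3 each; limma adjusted p = 0.675).

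Cd79b was the most abundant of the 3 surface genes and showed no separation. It lies on chr11:106311341-106314762 (minus strand). Its level was 22.6, 11.2 and 8.72 FPKM in DSS libraries, against 9.98, 15.8 and 12.4 FPKM in controls. DSS library 1 was the highest of the 6 and DSS library 3 the lowest. The means were 14.2 ± 7.40 FPKM in DSS and 12.7 ± 2.95 FPKM in controls (SD, n = 3 each), with a log2 change of 0.06 ± 0.33 (SE; limma adjusted p = 0.977), whose sign turned when the libraries were rescaled to an equal total or a library was left out. Between same-numbered libraries the ratio was 2.26, 0.708 and 0.705. Cd79b FPKM stood at 11.0, 3.92 and 5.13 times that of its partner Cd79a in DSS libraries, against 13.1, 15.7 and 10.5 times in controls, so that 2 DSS libraries lay below all controls and the groups overlapped.

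Ms4a1 (chr19:11249675-11266241, minus strand) had 1.17, 0.152 and 2.67 FPKM in DSS libraries, against 0, 0.147 and 1.19 FPKM in controls. Control library 1 had 0 fragments, where a count of 3 would have been 0.0417 FPKM. Replicate 3 was the highest of each group, as for Tnfrsf17, and the groups overlapped. The means were 1.33 ± 1.27 FPKM in DSS and 0.446 ± 0.650 FPKM in controls (SD, n = 3 each); in the limma test with no expression filter its log2 change was 0.62 (adjusted p = 0.963).

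**Figure D2:**
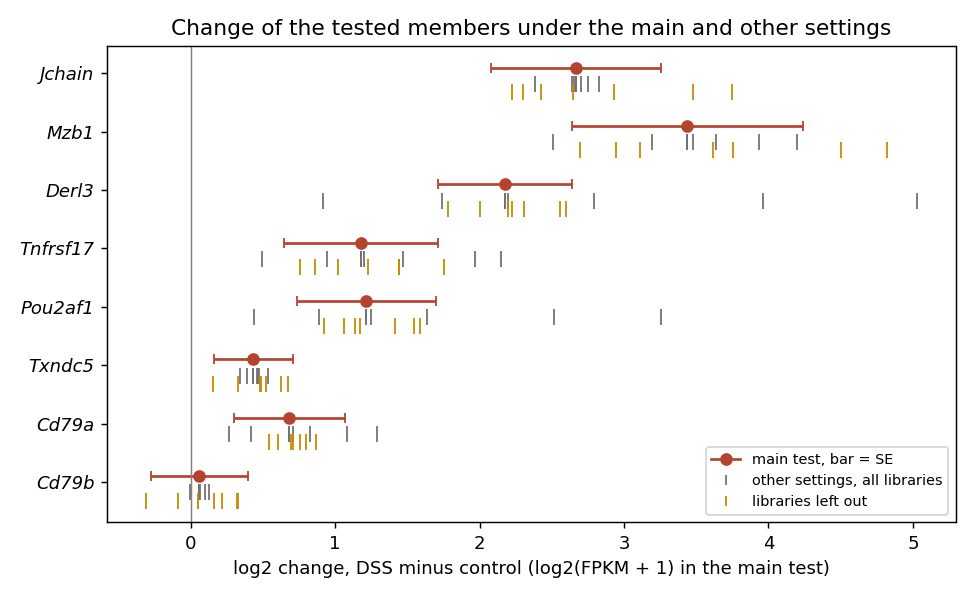
Log2 change, DSS minus control, of the 8 tested members: the point is the limma estimate on log2(FPKM + 1) with its SE, grey ticks are other settings with all libraries and ochre ticks are fits with libraries left out. Jchain stays between 2.22 and 3.75 and Mzb1 between 2.51 and 4.82, Derl3 spreads most, and Cd79b lies on both sides of 0.

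Other genes of the plasma cell programme had values on both sides of the controls. Of 18 further plasma cell genes, 17 were in the table and 12 were tested. By limma, 0 were called higher (0.0738% of all tested genes) and 1, Irf4, lower (0.148% of all tested genes). At an unadjusted limma p under 0.05 there were 5 in either direction, a count whose share over all tested genes was not taken. In 0 of the 12 did all DSS libraries lie above all controls (6.35% of all tested genes) and in 4 they lay below (9.6% of all tested genes). The median log2 change was 0.06, with 7 values higher and 5 lower. The summed level of the 17 was 366, 366 and 279 FPKM in DSS libraries, against 361, 345 and 357 FPKM in controls, with DSS libraries 1 and 2 slightly above and DSS library 3 below every control.

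Irf4, a factor of plasma cell differentiation and of type 2 lymphocytes, fell in DSS. Its level was 5.40, 6.91 and 6.15 FPKM in DSS libraries, against 24.4, 20.1 and 20.8 FPKM in controls. All DSS libraries lay below all controls, with means of 6.15 ± 0.752 FPKM in DSS and 21.8 ± 2.35 FPKM in controls (SD, n = 3 each). The log2 change was -1.67 ± 0.21 (SE; limma adjusted p = 0.0212); leaving out any control library, DSS library 2, both libraries numbered 3 or the mean-variance trend raised that adjusted p to between 0.107 and 0.277. Prdm1, which encodes the plasma cell repressor BLIMP1, had 10.2, 14.3 and 14.9 FPKM in DSS libraries, against 20.5, 24.6 and 18.6 FPKM in controls, separated groups and a limma adjusted p of 0.359. Ell2, an elongation factor that favours the secreted form of immunoglobulin mRNA, had 11.1, 13.0 and 12.2 FPKM in DSS libraries, against 19.2, 20.3 and 19.7 FPKM in controls and a limma adjusted p of 0.257. Both were chosen for mention after their values were seen.

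Xbp1, the factor that expands the ER of plasma cells, did not separate the groups. It had 32.5, 109 and 63.0 FPKM in DSS libraries, against 94.2, 96.3 and 86.4 FPKM in controls, with DSS library 1 lowest and DSS library 2 highest of the 6, and a limma adjusted p of 0.718. Sec11c, a subunit of the signal peptidase, had 163, 87.2 and 58.9 FPKM in DSS libraries, against 91.2, 86.2 and 83.9 FPKM in controls; DSS library 1 was the highest and DSS library 3 the lowest, the order of Jchain within DSS (limma adjusted p = 0.951). Cd27, a receptor of memory B cells, plasma cells and T cells, averaged 44.0 ± 2.05 FPKM in DSS and 44.2 ± 8.76 FPKM in controls (SD, n = 3 each).

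The next genes of the list were picked after their values were seen, and go both ways. Cd38, a surface enzyme of plasma cells and other lymphocytes, had 2.14, 0.828 and 3.09 FPKM in DSS libraries, against 5.55, 3.26 and 3.98 FPKM in controls; all DSS libraries lay below all controls (log2 change -0.85, limma adjusted p = 0.516). Fkbp11, an ER peptidyl-prolyl isomerase of secretory cells, had 5.53, 3.61 and 1.36 FPKM in DSS libraries, against 0, 0.257 and 1.48 FPKM in controls. Its log2 change was 1.50, with a limma adjusted p of 0.383, and control library 3 lay above DSS library 3. It averaged 0.580 FPKM in controls and passed the expression filter through its DSS values, so the counts of this list were partly set by that filter. Ccr10, the chemokine receptor of IgA plasma cells, had 1.39, 2.99 and 0.459 FPKM in DSS libraries, against 0, 0 and 0.542 FPKM in controls. Eaf2, a plasma cell elongation factor, had 3.06, 1.14 and 0.417 FPKM in DSS libraries, against 0.396, 0.0474 and 0.590 FPKM in controls. DSS libraries 1 and 2 were above all controls for Fkbp11, Ccr10 and Eaf2, while DSS library 3 was below control library 3, unlike in Jchain, Mzb1 and Derl3. Sdc1, the plasma cell surface proteoglycan CD138, had 0.0423, 1.11 and 1.63 FPKM in DSS libraries, against 0.163, 0 and 1.65 FPKM in controls, and was lowest among DSS libraries in the one with the highest Jchain.

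**Figure D3:**
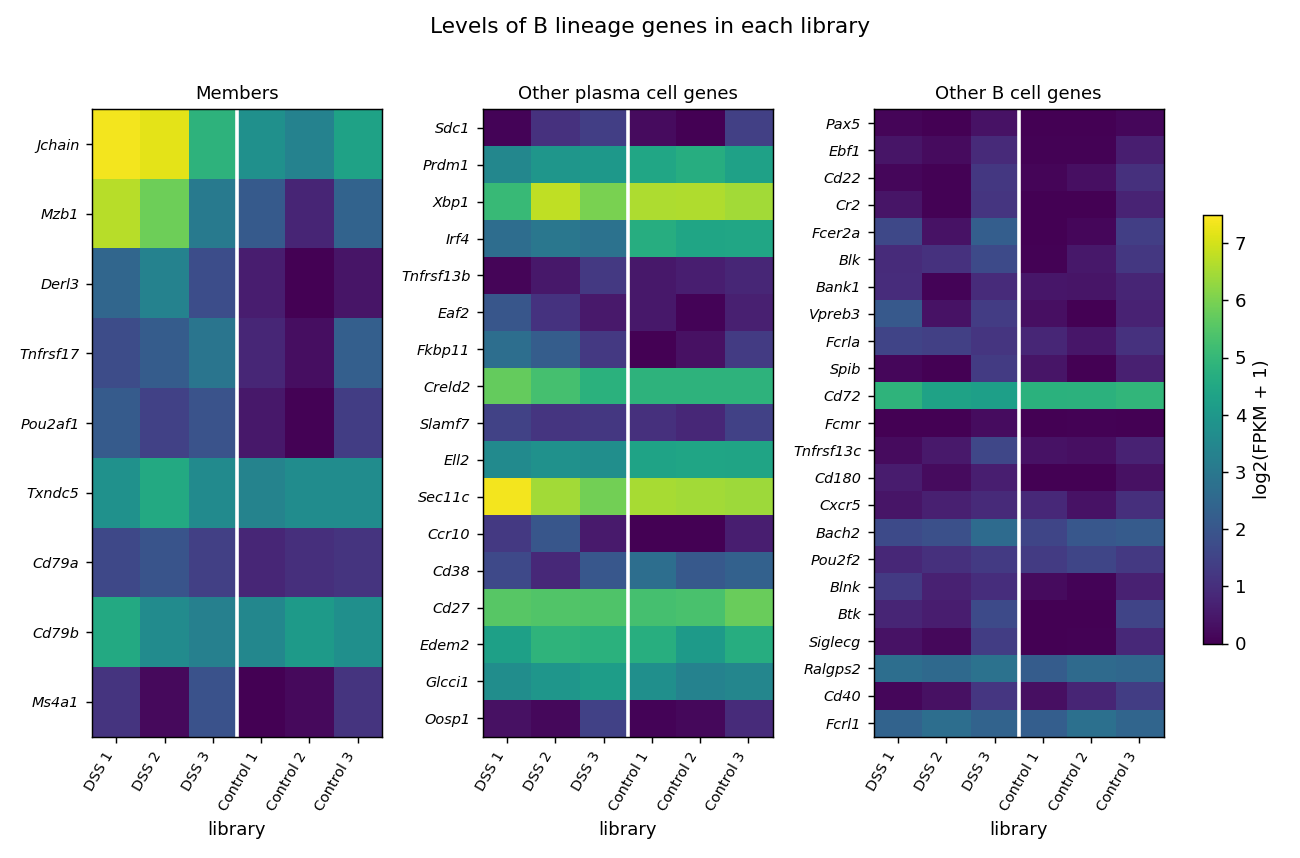
Level, as log2(FPKM + 1) by colour, of the 9 members, 17 other plasma cell genes and 23 other B cell genes (rows) in the 3 DSS and 3 control libraries (columns, split by the white line). Jchain and Mzb1 are brightest in DSS libraries 1 and 2, Irf4 is darker in all DSS libraries, and Pax5 is dark in all 6.

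Genes of B cells before the plasma cell stage were mostly under the expression filter. Of 23 other B cell genes, 7 were tested, and 0 were called by limma or by voom, with 0 at an unadjusted p under 0.05 in either test. In 1 of the 7, Fcrla, all DSS libraries lay above all controls (6.35% of all tested genes); it averaged 0.749 FPKM in controls and passed the expression filter through its DSS values. The median log2 change was 0.14, with 5 values higher and 2 lower. The summed level of the 23 was 54.8, 39.2 and 59.0 FPKM in DSS libraries, against 40.4, 46.0 and 58.7 FPKM in controls, and the groups overlapped.

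Cd72, a coreceptor of B cells, held the largest part of that sum, with 28.4, 18.9 and 17.7 FPKM in DSS libraries, against 26.4, 27.3 and 29.7 FPKM in controls. DSS libraries 2 and 3 lay below all controls, DSS library 1 lay within their range, and the limma adjusted p was 0.711. Ralgps2 averaged 5.49 ± 0.581 FPKM in DSS and 4.40 ± 0.739 FPKM in controls (SD, n = 3 each). Fcrl1, an Fc receptor-like protein, averaged 4.66 ± 0.734 FPKM in DSS and 4.66 ± 1.09 FPKM in controls. Bach2, a repressor that holds back plasma cell differentiation, averaged 3.29 ± 1.59 FPKM in DSS and 2.80 ± 0.772 FPKM in controls. Pax5, the factor that fixes B cell identity, was near 0 outside replicate 3. Named after its values were seen, like Fcer2a, it had 0.0750, 0.00651 and 0.285 FPKM in DSS libraries, against 0, 0 and 0.0877 FPKM in controls. Fcer2a, the low-affinity IgE receptor CD23, had 2.08, 0.279 and 3.75 FPKM in DSS libraries, against 0.0191, 0.101 and 1.60 FPKM in controls, and its second highest value was in DSS library 1. Like Fcrla, it passed the expression filter through its DSS values, with a mean of 0.573 FPKM in controls.

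Libraries numbered 3 stood apart for some of these low genes in both groups. Pax5, Fcer2a, Ms4a1 and Tnfrsf17 were all highest in replicate 3 of their group, whereas Jchain and Mzb1 were lowest in DSS replicate 3. Other low genes went with Jchain and Mzb1 in this: Derl3, Cd79a, Fcrla, Fkbp11, Eaf2 and Ccr10 were also lowest in DSS replicate 3. The mean of the olfactory receptor genes was likewise highest in replicate 3 of each group, and its part in the values of low genes was not tested. Without both replicates 3, limma called 1 member, Jchain (log2 change 3.75, adjusted p = 0.0199), and Mzb1 had a log2 change of 4.82 (adjusted p = 0.0550).

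General ER folding and degradation genes, which plasma cells hold at high levels, lay below the controls in summed level in all 3 DSS libraries. Hspa5 was the largest part of that sum in every library and was itself below all controls in each DSS library. The sum without it was not compared, so this order is not shown for the rest of the list. Of 24 tested, 0 were called by limma or by voom, with 0 at an unadjusted p under 0.05 in either, 9 values were higher and 15 lower, and the median log2 change was -0.15. In 0 of the 24 did all DSS libraries lie above all controls (6.35% of all tested genes) and in 4 they lay below (9.6% of all tested genes). The summed level was 1691, 2134 and 1887 FPKM in DSS libraries, against 2272, 2159.7 and 2224 FPKM in controls. Hspa5, the ER chaperone BiP, had 530.4, 959.8 and 888 FPKM in DSS libraries, against 1053, 1008 and 1088 FPKM in controls, and DSS library 1, with the highest Jchain, had the lowest Hspa5 (limma adjusted p = 0.696). Calr, the chaperone calreticulin, averaged 113.9 ± 25.2 FPKM in DSS and 146.4 ± 10.4 FPKM in controls, and Herpud1, a component of ER degradation, 128.8 ± 41.3 FPKM in DSS and 124.5 ± 2.60 FPKM in controls (SD, n = 3 each). Sec61b, a subunit of the translocation channel, averaged 158.9 ± 92.4 FPKM in DSS and 118.5 ± 19.2 FPKM in controls (SD, n = 3 each; limma adjusted p = 0.885).

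**Figure D4:**
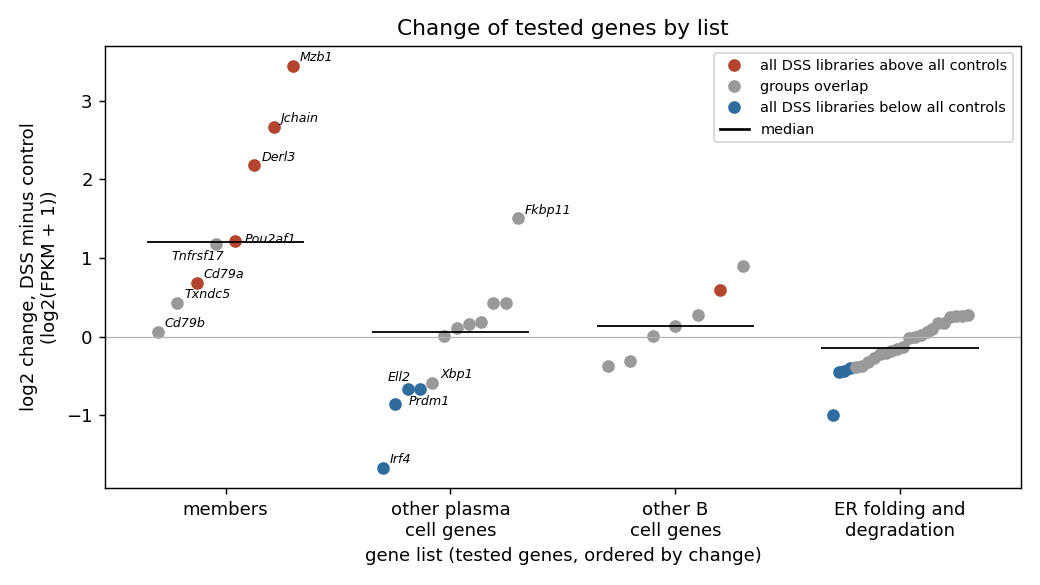
Log2 change, DSS minus control (limma on log2(FPKM + 1)), of the tested genes in each of 4 lists; each point is 1 gene, coloured by whether all DSS libraries lie above or below all controls, and the black line is the list median. The members' median is 1.20, against 0.06 for other plasma cell genes, 0.14 for other B cell genes and -0.15 for ER folding and degradation genes.

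Markers of further cell types differed among themselves in library order. The 11 neutrophil genes summed to 86.1, 67.4 and 113 FPKM in DSS libraries, against 4.55, 3.04 and 9.48 FPKM in controls, and the groups did not overlap. Most of the DSS sums was S100a8, S100a9 and Retnlg. In every other gene of that list the groups overlapped, and Ly6g and Ltf averaged lower in DSS than in controls. Of the 5 tested, 3 were called higher by limma (0.0738% of all tested genes) and 0 by voom, with 3 at an unadjusted p under 0.05 in each (3.57% of all tested genes higher in limma). Of these 3, S100a8 averaged 0.580 FPKM and Retnlg 0.556 FPKM in controls, and both passed the expression filter through their DSS values. The 11 macrophage and monocyte genes summed to 37.4, 50.6 and 61.8 FPKM in DSS libraries, against 35.2, 39.7 and 30.2 FPKM in controls. Ccr2, the largest part of the control sums, averaged lower in DSS (15.5 FPKM) than in controls (19.6 FPKM). Of the 5 tested, 4 were higher in value, 1 lower and 0 called by limma. In 2, with Cd14 among them, all DSS libraries lay above all controls (6.35% of all tested genes). The other averaged 0.567 FPKM in controls and passed the expression filter through its DSS values. The 12 colon epithelium genes summed to 37.4, 30.0 and 36.8 FPKM in DSS libraries, against 13.2, 12.9 and 24.3 FPKM in controls. DSS library 3, lowest of its group for Jchain and Mzb1, was the highest of its group for the neutrophil and macrophage sums. The T cell genes in the table (8 of 11) summed to 211, 144 and 144 FPKM in DSS libraries, against 122, 132 and 109.8 FPKM in controls, highest in DSS library 1. Most of that was Lat, with 148, 122 and 112 FPKM in DSS libraries, against 90.1, 109 and 77.0 FPKM in controls. Of the 6 T cell genes tested, 4 were higher in value and 2 lower. In 1 of them, Lat, all DSS libraries lay above all controls (6.35% of all tested genes). The 9 dendritic cell genes, which include plasmacytoid markers, summed to 174, 117 and 125 FPKM in DSS libraries, against 100.1, 115 and 85.4 FPKM in controls, and most of that was Bst2, with 163, 99.5 and 96.9 FPKM in DSS libraries, against 80.7, 87.6 and 59.8 FPKM in controls. Within DSS, Lat and Bst2 had the library order of Jchain. The dendritic cell list went both ways: of 6 tested, 3 were higher in value and 3 lower. In 1, Bst2, all DSS libraries lay above all controls (6.35% of all tested genes). In 2 they lay below (9.6% of all tested genes). Zbtb46, a factor of conventional dendritic cells, had 1.48, 3.59 and 5.32 FPKM in DSS libraries, against 8.36, 9.82 and 9.44 FPKM in controls, and Xcr1, a chemokine receptor of theirs, had 0.989, 1.79 and 2.91 FPKM in DSS libraries, against 5.23, 8.13 and 5.73 FPKM in controls; in both all DSS libraries lay below all controls (limma adjusted p = 0.196 for Zbtb46 and 0.156 for Xcr1). The part of any of these cell types in the members' values was not tested.

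Among 12186 other genes, those most like Jchain over the 6 libraries, by Pearson correlation of log2(FPKM + 1), were Ncoa7 (r = 0.993), Mzb1 (0.990), Gnptg (0.988), Acyp2 (0.980) and Cited4 (0.977). The 6 points fall in 2 groups and share their libraries, so these values rank genes and carry no test. Ncoa7, a nuclear receptor coactivator, had 5.48, 5.02 and 3.06 FPKM in DSS libraries, against 2.45, 2.26 and 2.52 FPKM in controls. Cited4, a transcriptional coregulator, had 212.3, 216.8 and 126.5 FPKM in DSS libraries, against 74.8, 86.6 and 106.1 FPKM in controls. Like Jchain, both were high in DSS libraries 1 and 2 and nearer the controls in DSS library 3. Of the other members, Derl3 had r = 0.941 with Jchain (rank 46) and Cd79a 0.914 (rank 84), followed by Pou2af1 at 0.753 (rank 618) and Txndc5 at 0.731 (rank 713). Tnfrsf17 (0.484, rank 1872) and Cd79b (0.365, rank 2514) ranked far behind.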

How the data were processed

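RNA from sorted colonic ILC2s was sequenced in 3 DSS and 3 control libraries. Per the labels' protocols, TRIzol-extracted RNA was turned into full-length cDNA (SMART-Seq HT) and into paired-end libraries by Nextera XT, a method that leaves strand unmarked. The submitters' processing notes name cutadapt 1.9, HISAT2 2.2.1 and the build mm10. How fragments were assigned to genes, and with which annotation and lengths, is not given in the sources used here. A single deposited table holds the authors' FPKM values for 23268 genes, and each sample's group came from its title. FPKM divides by gene length and library depth, so levels can be set beside each other between genes, but a few very abundant genes can lower all others.

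Whole fragments were recovered from the FPKM steps in 22701 of 22701 genes above 0, within 0.001 of a whole number (100% of them), and gave the depth of each library, the fragment counts printed and the floor of 3 fragments; this floor covers counting error only. Members were found by symbol. The test was limma 3.58.1 in R 4.3.3 with a mean-variance trend on log2(FPKM + 1), with no covariate, for genes with a mean of at least 1 FPKM, two-sided, with Benjamini-Hochberg adjustment over all 12187 genes. Log2 changes on this scale understate the change of low genes. The procedure was tested on simulated data. Alternatives changed the pseudocount, filter, scaling, trend and robust settings, added a replicate block, used voom on recovered fragments, or left out libraries.

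Gene coordinates and overlaps are from GENCODE M21 (GRCm38, the sequence of mm10), and promoter sequences from RefSeq (GRCm38.p6). Tables were handled in Python 3.11.15 with pandas 2.3.3, and figures drawn with matplotlib 3.10.9. No 2 libraries agreed within sampling noise.

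Members and lists were chosen with earlier results of these data known. The text names all members, called genes and then the most abundant, up to 4 per list, and the 5 genes most like Jchain; Prdm1, Ell2, Fkbp11, Ccr10, Eaf2, Sdc1, Pax5, Fcer2a, Fcrla, Tnfsf13 and Cd38 were named after their values were seen, and lists of other cell types are given by their sums. A gene was left out of the B cell list and is not reported here. After centring each gene within its group, same-numbered libraries had correlations of 0.189, 0.262 and 0.545 for numbers 1, 2 and 3. DSS library 2 correlated more with control library 1 (0.345), so numbers 1 and 2 are not shown to be pairs. Centring also ties the 3 libraries of a group to each other, so these correlations are not independent. The labels name no pairing, and the same-numbered ratios and the replicate block rest on the library numbers.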

Additional observations from a re-analysis of the deposited data

How the results depend on the processing

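The number of genes called, 27 with 9 higher and 18 lower, was 14 (6 higher, 8 lower) after rescaling to an equal total, 9 (5 higher, 4 lower) with median-of-ratios scaling, 4 (3 higher, 1 lower) without the mean-variance trend, 19 (3 higher, 16 lower) with voom and 5 (5 higher, 0 lower) without both replicates 3. With the replicate block it was 22 (12 higher, 10 lower), with 0 members called and a lowest member adjusted p of 0.0873, for Derl3; among the members and the other named genes of the B cell, plasma cell and ER lists that were tested, no call changed under the block. Leaving out 1 library gave between 4 and 413 genes, the most without DSS replicate 1. The number of members called, 0 in the test reported, lay between 0 and 2 with 1 library left out, with 2 (Jchain and Mzb1) without DSS replicate 3, and was 1 without both replicates 3. Over all settings the 7 tested members other than Cd79b kept their direction, at log2 changes of 2.22 to 3.75 for Jchain, 2.51 to 4.82 for Mzb1 and 0.92 to 5.03 for Derl3. Signs turned for genes near 0: Cd79b (-0.0032 with an equal total; -0.31 to 0.33 with 1 library left out), Fcrl1 (-0.042 with an equal total, -0.079 with quantile normalization; -0.11 to 0.16), Bach2 (-0.031 without both replicates 3; -0.15 to 0.31), Cd27 (-0.051 with an equal total; -0.079 to 0.16), Sec11c (-0.28 to 0.45), Sec61b (-0.17 to 0.66) and Herpud1 (0.028 with median-of-ratios scaling, 0.061 with quantile normalization; -0.22 to 0.27). The causes were not tested. Low fragment counts limit Derl3, Pou2af1, Tnfrsf17, Cd79a and Ms4a1 most.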
